A study of Rattus norvegicus with 6 samples.

Results

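The miR-26 family was followed in rat primary skeletal muscle cells (RSkMC) that differentiated for 11 days with or without interleukin-8 (IL-8). Its members were taken as every array feature for rat RNA that is an arm of miR-26a or miR-26b, which gave 4 of the 719 miRNAs on the array: rno-miR-26a-5p, rno-miR-26a-3p, rno-miR-26b-5p and rno-miR-26b-3p, written below without the rat prefix. The cells came from limb muscle of newborn rats, were bought from a cell collection frozen at an early passage, and were moved from growth medium to low horse serum to start myogenic differentiation. The control group was left untreated (n = 3 samples) and the IL-8 group received 1 ng/ml of recombinant IL-8, a neutrophil-attracting chemokine (n = 3 samples). Total RNA with small RNA was labelled with Cy3 and hybridised to 1-colour Agilent miRNA arrays, 1 array per sample. The growth protocol in the labels mentions IL-8 for every sample, while titles and agent labels call 3 samples untreated; the titles were followed.

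A miRNA guides a silencing complex to messenger RNAs through its seed, bases 2 to 8 from the 5′ end. The hairpin precursor holds an arm on each side, and usually one of them, here the 5p arm, is the strand loaded into the complex. The family is best known for repressing Ezh2, the histone methyltransferase of Polycomb repressive complex 2 that keeps muscle genes silent in myoblasts, and Smad1 and Smad4, transcription factors of the BMP and TGF-beta pathways that restrain myogenic differentiation. miR-26a has been described to rise during myoblast differentiation. Messenger RNA was not measured here, so no value below concerns Ezh2 or a Smad.

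The mature sequences from RefSeq (GRCr8) are shown first, since the measurement rests on which bases the arms share. All 4 arms were found among the 693 mature rat names of that table. Capitals mark the seed.

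miR-26a-5p: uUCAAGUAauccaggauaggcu

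miR-26b-5p: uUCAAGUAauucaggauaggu

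miR-26a-3p: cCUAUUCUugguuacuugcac

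miR-26b-3p: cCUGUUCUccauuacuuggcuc

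Both 5p arms carry the seed UCAAGUA, and no other mature miRNA of the table has it. Counted from the 5′ end with miR-26a-5p first, the 5p arms differ by C11U and C21U among the 21 positions they share, and miR-26a-5p is 1 base longer at 22 bases. The 3p arms have different seeds, and neither seed occurs elsewhere in the table. The hairpins show where the arms lie, with both mature arms in capitals.

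Mir26a: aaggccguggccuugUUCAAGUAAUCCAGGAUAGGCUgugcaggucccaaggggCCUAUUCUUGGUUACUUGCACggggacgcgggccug

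Mir26b: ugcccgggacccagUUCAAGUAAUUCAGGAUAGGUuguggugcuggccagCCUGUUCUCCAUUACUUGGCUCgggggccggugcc

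In GRCr8, Mir26a lies on the plus strand at chr8:127633048-127633137, within the bounds of the gene Ctdspl, and Mir26b on the plus strand at chr9:83425709-83425793, within the bounds of Ctdsp1. Both host genes encode small phosphatases of the RNA polymerase II C-terminal domain. Whether the hairpins are intronic or exonic was not analysed here, since the table gives gene bounds only. No other miRNA hairpin of the table lies close by: the nearest is Mir138-1 for Mir26a, at 3545297 bases, and Mir375 for Mir26b, at 480789 bases.

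The array probes are complementary to the mature strand from its 3′ end, and capitals here mark the bases that face positions 11 and 21, where the 5p arms differ.

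miR-26a-5p, 15 bases: aGcctatcctgGatt

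miR-26a-5p, 16 bases: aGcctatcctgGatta

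miR-26b-5p, 20 bases: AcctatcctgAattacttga

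miR-26b-5p, 21 bases: AcctatcctgAattacttgaa

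The miR-26a-5p probes pair with positions 8 to 22 and 7 to 22, and so cover 1 and 2 of the 7 seed bases. The miR-26b-5p probes pair with positions 2 to 21 and 1 to 21 and cover the whole seed. Each of these probes matched its own arm fully and no other mature sequence of the table. At the positions the miR-26a-5p probes cover, miR-26b-5p lacks 3 matches, one of them because its sequence ends a base earlier. At the positions the miR-26b-5p probes cover, miR-26a-5p lacks 2. Cross-hybridisation between the 5p arms was not tested. The array files place the longer probes at chr8:123981642-123981656 and chr9:73734077-73734096 in rn4, a span 1 base shorter than each probe. The shorter probe of each arm lies within the longer, so the pair gives no independent support.

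Of the 719 miRNAs, 167 were tested because a group had at least 1 of their probes well above background on each of its 3 arrays, and a single array had between 154 and 180 miRNAs well above background. Defining markers of muscle, 7 of 7 on the array with miR-1-3p, miR-133a-3p and miR-206-3p among them, were well above background on no array, with a highest signal of 9.23, while the fibroblast and smooth muscle markers were detected in 6 of 6 cases. None of the blood (6), endothelial (2), epithelial (7) and neural (3) markers was detected. The labelled cell type is therefore not shown by its muscle-enriched miRNAs. The summed signal of the 6 fibroblast and smooth muscle markers ran from 43303 to 57862 fluorescence units on the control arrays and from 57213 to 58501 on the IL-8 arrays before scaling; none of the 6 passed the test after scaling, and their part in the miR-26 values was not tested. The control arrays shared 1 slide and the IL-8 arrays a second one, and slide and treatment cannot be told apart in any value below. Separate cultures within a group are not named in the labels, and p-values measure only a spread between samples that may be technical. Precision is limited by the number of arrays.

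The 5p arms were bright and the 3p arms were not detected. Both probes of miR-26a-5p and both of miR-26b-5p were well above background on all 6 arrays, with every spot of each probe passing. Across probes and arrays the signal ran from 771 to 1808 fluorescence units for miR-26a-5p and from 400.3 to 718 for miR-26b-5p. Each of these probes had 10 spots per array, and the coefficient of variation over the spots of a probe lay between 2.73% and 9.46% for miR-26a-5p and between 4.02% and 6.47% for miR-26b-5p. The software called 3 of 120 miR-26a-5p spots and 1 of 120 miR-26b-5p spots outliers, and none was saturated.

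The 3p arms, the usual passenger strands, gave no spot well above background on any array. The 2 probes of miR-26a-3p had signals between -1.84 and 1.61 on the control arrays and between -2.07 and 3.25 on the IL-8 arrays. The 4 probes of miR-26b-3p, from 17 to 20 bases long, had signals between -3.83 and 4.52 in control and between -3.33 and 4.21 with IL-8. The dimmest probe that counted as well above background had a signal of 12.3 to 17.1, depending on the array, so every 3p value lay below it. Among the 434 negative control spots of an array the 95th percentile ranged from 7.92 to 11.9, above every 3p value as well. No change of the 3p arms with IL-8 was measurable at this signal, and no fold is given.

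**Figure D1:**
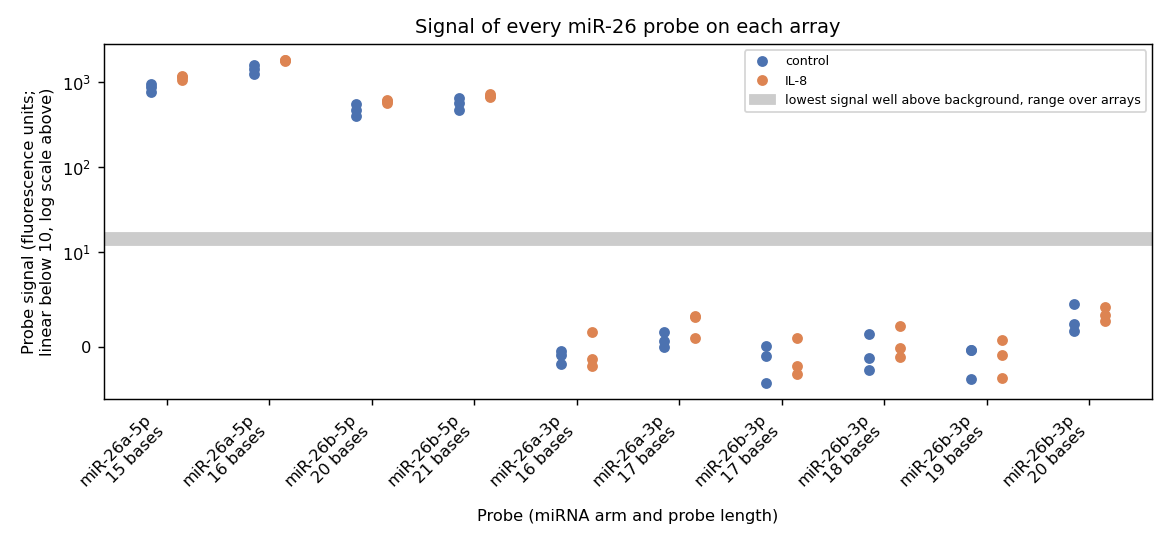
Signal of each miR-26 probe on each array in fluorescence units, on an axis that is linear below 10 and logarithmic above, with control arrays in blue, IL-8 arrays in orange and a grey band for the lowest signal well above background over the arrays. The 4 probes of the 5p arms lie at 400.3 to 1808 units and the 6 probes of the 3p arms at -3.83 to 4.52 units, below the band from 12.3 to 17.1.

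Before any scaling between arrays, both 5p arms were brighter on every IL-8 array than on any control array. The mean probe signal of miR-26a-5p was 1013, 1147 and 1274 fluorescence units on the control arrays of replicates 1, 2 and 3, and 1486, 1464 and 1424 on the IL-8 arrays. For miR-26b-5p it was 433, 520.1 and 603 in control and 667, 625 and 643 with IL-8. The groups did not overlap for either arm, and control replicate 3 lay nearest to the IL-8 arrays in both. The share of all tested miRNAs without overlap before scaling was not counted, so the separation is not a trait of these arms alone. The log2 signal was higher by 0.36 for miR-26a-5p (1.28-fold) and by 0.33 for miR-26b-5p (1.25-fold), each with an exact two-sided permutation p of 0.1, the smallest that 3 arrays against 3 can give. The arrays as a whole moved the same way: the 75th percentile of the 264 probes detected on all 6 arrays was 440.1, 475 and 497 units in control and 569, 549 and 540 units with IL-8, a 1.18-fold difference (exact two-sided permutation p = 0.1). The spike-in control RNAs, averaged over 23 probe names, differed by 0.047 on the log2 scale (exact two-sided permutation p = 0.5). In these bulk samples a change in the number of cells of a type, a change in RNA per cell and the slide cannot be told apart.

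After each array was divided by that 75th percentile, miR-26a-5p stood slightly higher with IL-8 and did not pass the test. Its log2 level relative to the percentile was 1.16, 1.23 and 1.31 in control replicates 1 to 3, and 1.35, 1.38 and 1.35 in IL-8 replicates 1 to 3. The 3 IL-8 values lie close together and above all control values, with control replicate 3 just below the lowest of them. The means were 1.23 ± 0.08 (SD, n = 3) in control and 1.36 ± 0.02 (SD, n = 3) with IL-8. The log2 change was 0.13 ± 0.06 (SE), a 1.09-fold difference with a 95% confidence interval of 0.993 to 1.20 and a limma adjusted p of 0.251 over the 167 miRNAs. Over all tested miRNAs 7.19% were called at an adjusted p under 0.05, and 29.9% had groups that did not overlap, 16.2% being higher with IL-8.

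miR-26b-5p, the second strand with the same seed, had overlapping groups. Its log2 level was -0.028, 0.12 and 0.27 in control replicates 1 to 3 and 0.23, 0.18 and 0.25 in IL-8 replicates 1 to 3. Control replicate 3 was the highest of the 6 values and control replicate 1 the lowest. The means were 0.12 ± 0.15 (SD, n = 3) and 0.22 ± 0.03 (SD, n = 3). The log2 change was 0.10 ± 0.08 (SE), a 1.07-fold difference with a 95% confidence interval of 0.937 to 1.22 and a limma adjusted p of 0.543. Of the 2 tested members of the family, 0 were called by limma, and 0 had an unadjusted p under 0.05 (0.0661 for miR-26a-5p and 0.277 for miR-26b-5p), a mark that 25.1% of tested miRNAs passed. This count depended on the arrays kept and on the processing. Without control replicate 3 both arms had an unadjusted limma p under that mark (0.0229 and 0.0304), as had 60 of the 167 miRNAs. For miR-26a-5p the unadjusted limma p was also under 0.05 with the normexp background (0.0150) and array weights (0.0263). Under these 2 settings 66 and 53 of the 167 miRNAs were below 0.05. With eBayes trend and robust settings the unadjusted limma p of miR-26a-5p was 0.0391, and with no filter 0.0454. There 40 of 167 and 38 of 719 miRNAs were below 0.05. Without scaling the unadjusted limma p was 0.00552 for miR-26a-5p and 0.0190 for miR-26b-5p, and with spike-in scaling it was 0.00625 and 0.0234. Under those settings 97 and 83 of the 167 miRNAs were below 0.05.

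**Figure D2:**
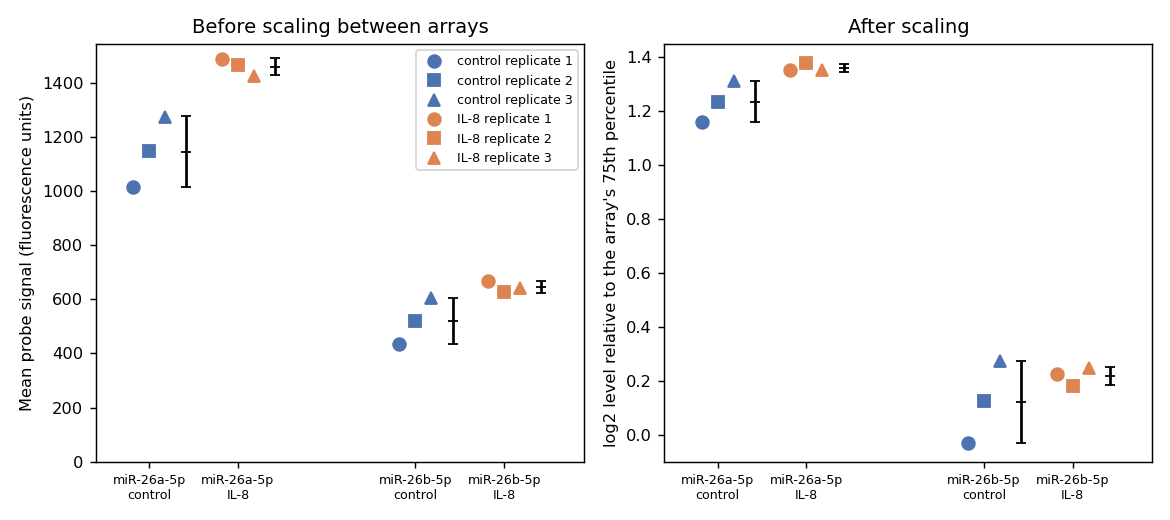
Values of miR-26a-5p and miR-26b-5p on each array, as mean probe signal in fluorescence units (left) and as log2 level relative to the 75th percentile of the array (right), with a symbol for each replicate and the mean with SD as a black bar (n = 3 per group). Before scaling the control arrays run from 1013 to 1274 and the IL-8 arrays from 1424 to 1486 for miR-26a-5p; after scaling its groups differ by 0.13 and those of miR-26b-5p overlap.

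Among all tested miRNAs the changes of both arms were moderate. Ordered from the largest rise, miR-26a-5p was at place 41 and miR-26b-5p at place 52 of 167, in an array where 96 miRNAs stood higher and 71 lower in the treated group, at a median log2 change of 0.019. Relative to that median the arms were higher by 0.11 and 0.077. Changes over the array ran from -0.65 to 0.62, and 12 miRNAs were called, 6 higher and 6 lower.

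**Figure D3:**
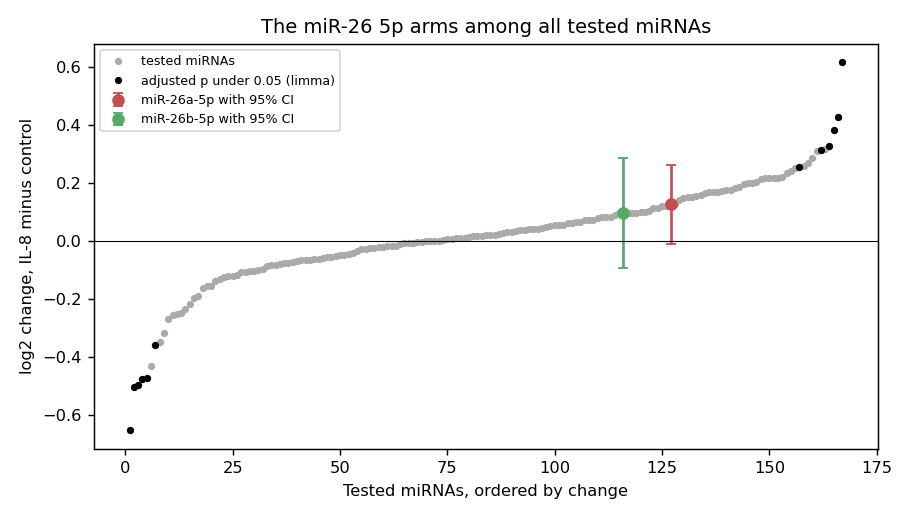
Log2 change with IL-8 of the 167 tested miRNAs, ordered from the lowest to the highest; black points passed an adjusted p under 0.05 by limma, and the coloured points with bars are the miR-26 5p arms with their 95% confidence intervals. The change of miR-26a-5p is 0.13 and that of miR-26b-5p 0.10, both intervals include 0, and the called miRNAs lie toward the ends of the order.

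The spread of the family lay mostly in the control group. For miR-26b-5p the control SD of 0.15 was exceeded by 46 of the 167 miRNAs, and the IL-8 SD of 0.03 by 142. For miR-26a-5p the control SD was exceeded by 105 and the IL-8 SD of 0.02 by 163. The array as a whole was also more variable in control: the SD was larger there for 123 of 167 miRNAs, with a median of 0.086 against 0.057 with IL-8. Leaving out control replicate 1, the dimmest array, moved the log2 change of miR-26b-5p to 0.036 (limma adjusted p = 0.821), and leaving out control replicate 3 moved it to 0.18 (limma adjusted p = 0.0959). For miR-26a-5p these values were 0.10 (limma adjusted p = 0.383) and 0.17 (limma adjusted p = 0.0750). Without any 1 of the arrays neither arm passed.

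Each probe was also tested by itself, among 300 probes of which limma called 6.67% and 27.7% had groups that did not overlap. The 15-base probe of miR-26a-5p had a log2 change of 0.14 ± 0.06 (SE) and groups that did not overlap (limma adjusted p = 0.227), and the 16-base probe one of 0.11 ± 0.06 (SE) with overlapping groups (limma adjusted p = 0.323). The 20-base and 21-base probes of miR-26b-5p differed by 0.10 ± 0.08 (SE) and by 0.087 ± 0.083 (SE) on the log2 scale, and limma gave adjusted p-values of 0.518 and 0.613; neither passed. The longer probe of each arm was brighter on all 6 arrays, by 0.63 to 0.75 log2 units for miR-26a-5p and by 0.20 to 0.26 for miR-26b-5p. This gap shifted between groups by -0.028 for miR-26a-5p (exact two-sided permutation p = 0.6) and by -0.017 for miR-26b-5p (exact two-sided permutation p = 0.5).

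Whether the paralogues responded differently was read from their difference within each array, which dividing an array by a common factor cannot alter. The log2 level of miR-26a-5p minus that of miR-26b-5p was 1.19, 1.11 and 1.04 on the control arrays of replicates 1 to 3 and 1.12, 1.19 and 1.10 on the IL-8 arrays. The groups overlap over most of their range, with means of 1.11 ± 0.08 (SD, n = 3) and 1.14 ± 0.05 (SD, n = 3). The shift with IL-8 was 0.030 (exact two-sided permutation p = 0.5, with 0.1 the smallest possible). Only this shift can be read, because the arms have different probes and the brightness of one says nothing about its amount relative to the other. The sign of the shift turned with quantile normalization (-0.027) and without control replicate 3 (-0.0069).

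How far the family appeared to rise depended on the scaling between arrays. Without scaling, where the tested miRNAs had a median change of 0.25, miR-26a-5p was called higher (0.36, limma adjusted p = 0.0310) and miR-26b-5p was not (0.33, limma adjusted p = 0.0548). Limma called 52 of the 167 miRNAs under that setting, all of them higher. With spike-in scaling, where that median was 0.20, miR-26a-5p was again called (0.31, limma adjusted p = 0.0348) and miR-26b-5p stood at 0.28 (limma adjusted p = 0.0653). Here 47 of the 167 miRNAs were called, 45 higher and 2 lower. Relative to the median of all tested miRNAs the changes under both settings were 0.11 and 0.077, as with the reported scaling. When all probes, most of them near background, set the 75th percentile, miR-26a-5p stood at 0.028 and miR-26b-5p at -0.0018 (limma adjusted p = 0.998 for both). With quantile normalization the groups of miR-26a-5p overlapped and the order of the arms turned, at 0.065 for miR-26a-5p and 0.092 for miR-26b-5p. The groups of miR-26a-5p also overlapped with the 75th percentile over all probes and when only the brightest probe of each miRNA was used. With the normexp background (offset 50) the values were 0.13 (limma adjusted p = 0.0740) and 0.086 (limma adjusted p = 0.255), at places 4 and 9 of 167, where the median of all tested miRNAs lay at -0.071. The changes of the arms were thus close to the reported 0.13 and 0.10, while limma called 24 miRNAs, 1 higher and 23 lower. Why the places moved was not tested.

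**Figure D4:**
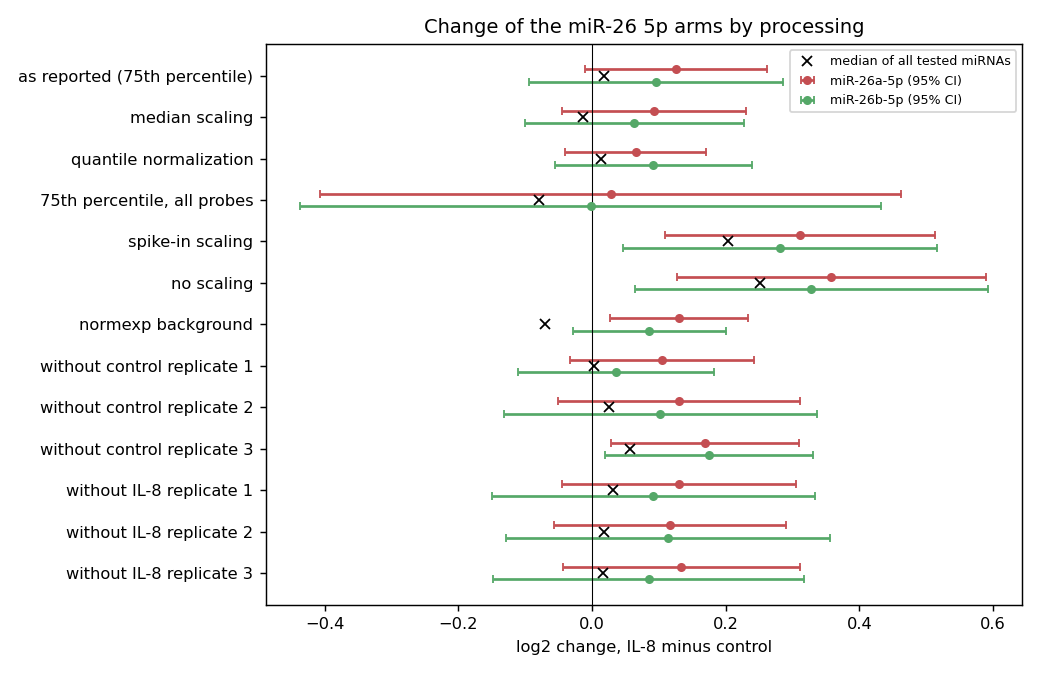
Log2 change with IL-8 of miR-26a-5p (red) and miR-26b-5p (green) with 95% confidence intervals under the reported setting, other scalings, the normexp background and the omission of each array, and the median of all tested miRNAs under the same setting (cross). Where only the single factor that divides each array is changed, the arms and the median move by the same amount. Across the settings miR-26a-5p ranges from 0.028 to 0.36 and miR-26b-5p from -0.0018 to 0.33.

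Other miRNAs known to repress Ezh2 were set beside the family. Of 8 on the list, the miR-26 5p arms included, 5 were tested. Of these, 4 stood higher and 1 lower in the treated group, and 0 were called by limma against 7.19% of all tested miRNAs. The other 3 tested were miR-101a-3p at 0.22 ± 0.13 (SE), its paralogue miR-101b-3p at 0.097 ± 0.106 (SE), and miR-214-3p, which acts on Ezh2 in differentiating muscle cells, at -0.024 ± 0.058 (SE). miR-124-3p, miR-137-3p and miR-138-5p were not well above background on any array. The list's median log2 change was 0.097 beside 0.019 for all tested miRNAs; it was 0.33 without scaling, 0.28 with spike-in scaling and close to 0 (-0.00049) with the 75th percentile over all probes. It came to 0.048 when dim probes were kept. It moved to 0.036 without control replicate 1 and to 0.18 without control replicate 3, in both cases the value of miR-26b-5p itself. The 3 tested members other than miR-26 had a median of 0.097, with 2 higher and 1 lower. On each array the middle level of the 5 was that of miR-26b-5p. Its SD between replicates, pooled over the groups, was 0.11.

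For miRNAs known to repress Smad proteins, 10 of 11 names were matched on the array, 5 of them tested, and 0 called by limma against 7.19% of all tested miRNAs. Beside the miR-26 5p arms these were miR-145-5p at -0.083 ± 0.066 (SE), miR-23b-3p at -0.071 ± 0.055 (SE) and miR-27b-3p at -0.082 ± 0.063 (SE). The miR-26 arms were thus the 2 higher values of this list and the other 3 were lower, none past the threshold. miR-146a-5p, miR-18a-5p, miR-224-5p and both arms of miR-675 were not well above background on any array, and miR-155-5p was not analysed here. The median of the 5 was -0.071, and it lay above 0 without scaling (0.16) and with spike-in scaling (0.11). It was -0.034 without control replicate 1, -0.040 without control replicate 3 and 0 with no filter on dim probes. On each array the middle level of the 5 was that of miR-27b-3p, whose SD between replicates, pooled over the groups, was 0.067.

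The miRNAs whose values over the 6 arrays were most like those of the family were found by the root mean square difference of log2 values after each miRNA was centred on its own mean. Nearest to miR-26a-5p were miR-28-5p, miR-30a-5p and miR-185-5p, at 0.030, 0.030 and 0.031, where the median over the 166 others was 0.10. Nearest to miR-26b-5p were miR-376b-5p, miR-495 and miR-30b-5p, at 0.030, 0.031 and 0.039, where the median was 0.11. The paralogues themselves were at 0.054 from each other, so miR-26b-5p was at place 19 among the neighbours of miR-26a-5p, and miR-26a-5p at place 7 among those of miR-26b-5p. Of these neighbours, 0 of 6 were called by limma, where 7.19% of all tested miRNAs were, and their log2 changes ran from 0.048 for miR-376b-5p to 0.17 for miR-30a-5p. The neighbours were chosen by likeness over the same 6 arrays, both groups included. Their changes and calls are thus no separate result. These distances are a description over 6 arrays that share their slides by group.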

How the data were processed

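The deposited array files hold fluorescence intensities of spots on a linear scale, made by the authors with Agilent Feature Extraction 10.10.1.1 (background subtraction, spatial detrending, no normalization between arrays), per the file headers and the submitters' processing notes. A deposited series table of intensities equalled the software's total probe signal for all 15095 spots of each array (relative tolerance 0.0001); it is thus linear, not centred and not scaled.

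Spots of a probe (1730 probes, 14380 spots) were averaged without outlier spots. A probe was well above background when over 50% of its spots were. Signals were divided by the array's 75th percentile, taken over 264 probes detected on all arrays, floored at a log2 level of -5.45 and put on the log2 scale. A miRNA was the mean of its probes detected on all arrays of a group. IL-8 was compared with control over all 167 such miRNAs by limma 3.58.1 in R 4.3.3 (reading with version 1.17.8 of data.table), with Benjamini-Hochberg adjustment and a threshold of 0.05, after a test on simulated data. For within-array differences an exact two-sided permutation test was used. No 2 arrays held identical values.

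The text names every miR-26 arm, the tested members of 2 lists by target from general knowledge, and the 3 nearest miRNAs per arm; undetected list members were named after their values were seen. The members and lists were chosen with earlier results of these data known. Alternatives covered scaling, background (normexp, offset 50), probe summary, filter, floor, limma settings, a replicate block and omission of each array.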

Additional observations from a re-analysis of the deposited data

How the results depend on the processing

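Of 23 alternatives, miR-26a-5p kept a positive change in all and was called by limma in 2: no scaling (0.36) and spike-in scaling (0.31). miR-26b-5p was called in 0 and turned negative in 1, the 75th percentile over all probes (-0.0018), as did its 21-base probe (-0.010). Leaving out 1 array gave 0.10 to 0.17 for miR-26a-5p and 0.036 to 0.18 for miR-26b-5p. The within-array shift ran from -0.0069 to 0.069 when 1 array was left out, and was -0.027 with quantile normalization.

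The number of miRNAs called by limma, 12 as reported, was 52 (all higher) without scaling, 47 (45 higher, 2 lower) with spike-ins, 24 (1 higher, 23 lower) with normexp, 28 (18 higher, 10 lower) with array weights, a fit that stopped before its convergence tolerance, 14 (4 higher, 10 lower) with median scaling, 7 with the deposited total gene signal, and 0 with the percentile over all probes (9 at unadjusted p under 0.05) or with no filter (38 at unadjusted p under 0.05). Single arrays moved it between 1 and 33: 33 without control replicate 3, 9 without control replicate 1, 3 without control replicate 2, and 5, 1 and 4 without IL-8 replicates 1, 2 and 3. A floor at the median of the arrays' lowest detected signals, chosen after seeing the data, gave 10. The Ezh2 list's median moved to 0.33 without scaling and 0.28 with spike-ins. The Smad list's median moved to 0.16, 0.11, -0.17 and 0 without scaling, with spike-ins, with the percentile over all probes and with no filter. Dividing each array by a single factor moves a list's median and the median of all tested miRNAs by the same amount. With no filter, list members that were not well above background enter the median. Why the number of called miRNAs moved was not tested.

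With the replicate number as a block limma called 3 miRNAs; the adjusted p was 0.207 for miR-26a-5p and 0.437 for miR-26b-5p. Deviations of same-numbered arrays correlated at 0.24, 0.32 and 0.079, and those of differently numbered arrays at -0.60 to 0.35. These values do not settle whether the numbers pair samples, and the reported fit assumed no pairing. Control replicate 2 correlated best with IL-8 replicate 3 (0.35).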
